A study of Homo sapiens with 8 samples.

Results

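The 4 IgG control libraries of an iCLIP experiment in U2OS cells, a human osteosarcoma cell line, were examined as a record of the RNAs recovered without a specific antibody. They were chosen by their labels, 4 of the 8 libraries of the series: 2 belong to the dyskerin immunoprecipitation (dyskerin IgG 1 and 2) and 2 to the GAR1 immunoprecipitation (GAR1 IgG 1 and 2). The other 4 libraries, 2 with an antibody to dyskerin and 2 with an antibody to GAR1, are used only for reference. All 8 libraries came from nuclear fractions of unmodified cells crosslinked with ultraviolet light of 254 nm at 1500 J/m2, with RNA trimmed by RNase I at 0.4 units/ml, and mouse IgG took the antibody's place in the controls. The dyskerin antibody was a mouse antibody and the GAR1 antibody a rabbit antibody, so the IgG matched its antibody in species only for dyskerin.

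Dyskerin is the pseudouridine synthase of the H/ACA ribonucleoprotein, in which GAR1 is one of the core proteins, and a box H/ACA guide RNA directs the enzyme to its target. H/ACA small nucleolar RNAs (snoRNAs) guide the modification of rRNA, small Cajal body RNAs (scaRNAs) guide that of spliceosomal snRNAs, and C/D snoRNAs belong to a separate particle that methylates ribose. Most human snoRNAs are cut from introns of host genes. In iCLIP, reverse transcription stops at the nucleotide next to the crosslink, so each cDNA marks a position, and molecules are counted as cDNAs at each called site. An IgG control records what is recovered when no specific antibody is on the beads.

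The cDNAs of each library were summed by gene on the matching strand, and a level is given as CPM, the cDNAs of the gene scaled to the total over that library's called sites, on which 1 cDNA was worth 6.83 and 122 CPM in dyskerin IgG 1 and 2, against 3.39 and 93.4 CPM in GAR1 IgG 1 and 2. CPM is not divided by RNA length, so an order of RNAs by CPM is an order of recovered signal. The total covers only positions that passed the site call in that library, made against random placement within each gene, and is not its sequencing depth. It was 146514 cDNAs in 79451 sites for dyskerin IgG 1 and 8183 cDNAs in 2954 sites for dyskerin IgG 2, against 295255 cDNAs in 15074 sites for GAR1 IgG 1 and 10701 cDNAs in 2747 sites for GAR1 IgG 2. The first library thus held 17.9 times the cDNAs of the second in the dyskerin IgG set and 27.6 times in the GAR1 IgG set, and this gap touches every result that follows. With 2 libraries a set, an exact permutation test cannot give a p below 0.33. The labels do not say that replicates were separate cultures. The paper describes its dyskerin and GAR1 iCLIP values as averages over 2 independent experiments, but does not say this of the IgG libraries. Any p therefore measures only the spread between these libraries. The labels give no batch, so set and batch cannot be told apart. Of 8 mesenchymal and bone markers, 5 and 1 had a site in dyskerin IgG 1 and 2 and 0 in both GAR1 IgG libraries, while all 5 epithelial and all 4 blood markers were at 0 in the 4 libraries.

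Sequences that carry the comparison are given first, each with the nucleotides that held at least 5% of the cDNAs of the window in capitals (mean of the shares in the 2 libraries of a set). They were read from the GRCh38/hg38 genome, in DNA letters, on the plus strand, 5′ to 3′. SNORA77B, an H/ACA snoRNA at chr22:20126397-20126526 with 5 nt upstream, is shown because its leading nucleotide differed between the sets. It was chosen after its values were seen.
SNORA77B, dyskerin IgG: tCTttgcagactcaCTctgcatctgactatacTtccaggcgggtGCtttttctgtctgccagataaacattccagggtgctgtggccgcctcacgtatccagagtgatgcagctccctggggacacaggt
SNORA77B, GAR1 IgG: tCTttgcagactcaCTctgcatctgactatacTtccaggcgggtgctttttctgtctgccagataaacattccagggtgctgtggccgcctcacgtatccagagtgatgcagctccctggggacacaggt
SNORA81, an H/ACA snoRNA in an intron of the translation factor gene EIF4A2, lies at chr3:186786670-186786852 with 5 nt upstream and is shown as the H/ACA snoRNA with most signal in all 4 libraries.
SNORA81, dyskerin IgG: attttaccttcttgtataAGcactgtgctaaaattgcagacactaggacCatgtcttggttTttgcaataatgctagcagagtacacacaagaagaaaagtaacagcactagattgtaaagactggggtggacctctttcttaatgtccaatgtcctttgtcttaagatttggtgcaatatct
SNORA81, GAR1 IgG: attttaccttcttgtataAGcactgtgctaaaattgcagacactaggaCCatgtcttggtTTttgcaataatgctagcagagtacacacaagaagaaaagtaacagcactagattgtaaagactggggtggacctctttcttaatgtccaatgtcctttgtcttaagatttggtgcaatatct
MALAT1, a long noncoding RNA of nuclear speckles, is shown at chr11:65499798-65499858, a window of 61 nt, because it had the highest mean CPM in the dyskerin IgG set.
MALAT1, dyskerin IgG: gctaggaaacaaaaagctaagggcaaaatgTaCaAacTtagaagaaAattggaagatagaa
MALAT1, GAR1 IgG: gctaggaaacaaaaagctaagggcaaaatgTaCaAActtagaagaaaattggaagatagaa
SNORD3A, the U3 snoRNA of rRNA processing, is shown at chr17:19188022-19188082 as the one C/D snoRNA with both dyskerin IgG libraries above both GAR1 IgG libraries.
SNORD3A, dyskerin IgG: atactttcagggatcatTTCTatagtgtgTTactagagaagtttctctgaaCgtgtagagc
SNORD3A, GAR1 IgG: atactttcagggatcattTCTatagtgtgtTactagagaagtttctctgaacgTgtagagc
DANCR, a snoRNA host lncRNA, is shown at chr4:52713206-52713266 because most of its signal sits just before a snoRNA that it hosts, SNORA26. The window also takes in the start of SNORA26, so part of the marked signal is counted to that snoRNA and not to DANCR.
DANCR, dyskerin IgG: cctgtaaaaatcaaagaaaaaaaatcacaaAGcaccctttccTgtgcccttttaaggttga
DANCR, GAR1 IgG: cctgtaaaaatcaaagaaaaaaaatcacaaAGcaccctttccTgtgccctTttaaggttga

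Guide RNAs made up most of the GAR1 IgG background, whereas the dyskerin IgG set was split. Transcripts of protein-coding genes, introns included, led dyskerin IgG 1, and guide RNAs led dyskerin IgG 2. H/ACA snoRNAs took 16.2% (95% Wilson interval 16.0 to 16.3%) of the cDNAs in dyskerin IgG 1 and 58.7% (57.6 to 59.8%) in dyskerin IgG 2, against 80.5% (80.4 to 80.7%) in GAR1 IgG 1 and 75.3% (74.5 to 76.1%) in GAR1 IgG 2. These intervals cover counting error only. The mean share was 37.4% ± 30.1 in dyskerin IgG and 77.9% ± 3.68 in GAR1 IgG (SD, n = 2 each), a difference of -40.5 percentage points (dyskerin IgG minus GAR1 IgG). The 2 sets did not overlap, which gives the smallest p that this design allows (exact permutation test, two-sided, p = 0.333), and the spread within dyskerin IgG was close in size to the difference. With each site counted once, the shares were 3.68% and 46.9% in dyskerin IgG, against 45.2% and 55.3% in GAR1 IgG, and overlapped (exact permutation test, two-sided, p = 0.667).

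Transcripts of protein-coding genes took 55.8% and 14.8% of the cDNAs in dyskerin IgG 1 and 2, against 2.79% and 9.43% in GAR1 IgG 1 and 2. Introns held 60.5% and 58.9% of these cDNAs in dyskerin IgG 1 and 2, against 67.6% and 52.5% in GAR1 IgG 1 and 2. The mean share of the class was 35.3% ± 29.0 in dyskerin IgG and 6.11% ± 4.7 in GAR1 IgG (SD, n = 2 each). lncRNAs took 18.4% and 10.7% in dyskerin IgG, against 2.21% and 3.35% in GAR1 IgG, with means of 14.5% ± 5.49 and 2.78% ± 0.802, and the difference between these means was larger than the spread in either set. Neither class overlapped between the sets (exact permutation test, two-sided, p = 0.333 for each). The shares of C/D snoRNAs (4.55% and 6.79% against 7.99% and 4.78%), scaRNAs (1.48% and 4.46% against 4.55% and 3.28%), snRNAs (0.945% and 1.58% against 0.631% and 1.44%) and mitochondrial RNAs (1.37% and 1.81% against 0.335% and 1.37%) overlapped between dyskerin IgG and GAR1 IgG.

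Each first IgG library was close in its guide RNA share to the antibody libraries of its own immunoprecipitation. Guide RNAs of all kinds held 22.2% of the cDNAs in dyskerin IgG 1, against 18.1% and 21.5% in the dyskerin antibody libraries, and 93.1% in GAR1 IgG 1, against 93.4% and 92.4% in the GAR1 antibody libraries. In the second libraries they held 69.9% in dyskerin IgG 2 and 83.4% in GAR1 IgG 2. For protein-coding transcripts the antibody libraries had 66.4% and 64.7% with dyskerin and 2.62% and 3.54% with GAR1. The cause of this likeness was not tested, so it is not known whether all of the signal in the IgG libraries was recovered without a specific antibody, or whether these libraries are independent of the antibody libraries.

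**Figure D1:**
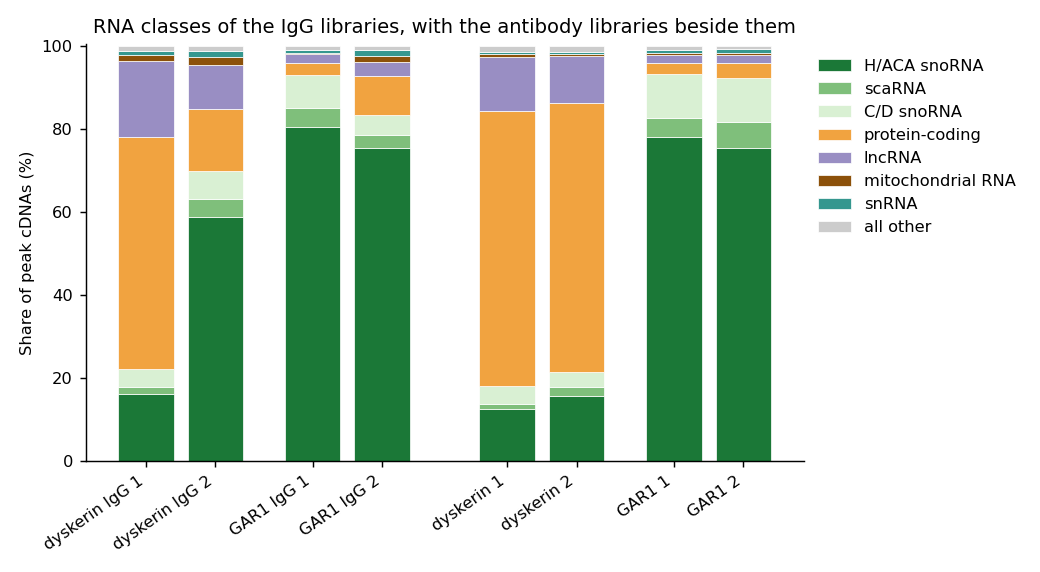
Share of peak cDNAs (%) in each RNA class, one stacked bar a library, with the 4 IgG libraries left of the 4 antibody libraries. H/ACA snoRNAs, in dark green, make up 16.2% of dyskerin IgG 1 and 58.7% of dyskerin IgG 2, against 80.5% and 75.3% of GAR1 IgG 1 and 2.

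The shape of the signal separated the first libraries as clearly as the classes did. Dyskerin IgG 1 was spread thinly, with 1.84 cDNAs a site and 74.4% of sites at 1 cDNA, and dyskerin IgG 2 had 2.77 cDNAs a site and 49.5% of sites at 1 cDNA. GAR1 IgG 1 was stacked, with 19.6 cDNAs a site and 90.0% of its cDNAs in sites of at least 10, against 25.9% and 29.9% in dyskerin IgG 1 and 2 and 50.1% in GAR1 IgG 2. Dyskerin IgG 1 had sites in 4235 genes and dyskerin IgG 2 in 668, against 1564 and 624 in GAR1 IgG 1 and 2. At a common depth of 8183 cDNAs the expected numbers were 1750 and 668 genes in dyskerin IgG, against 413 and 601 in GAR1 IgG. The second libraries of both sets were thus close to each other at that depth, and the first libraries lay on either side of them. At the same depth the antibody libraries gave 2690 and 2680 genes for dyskerin and 450 and 504 for GAR1. It took 125 and 24 genes to hold 50% of the cDNAs in dyskerin IgG 1 and 2, against 23 and 15 in GAR1 IgG 1 and 2.

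A small common set of guide RNAs was found in every control. Of 5412 genes with a site in any IgG library, 430 had one in both dyskerin IgG libraries, 282 in both GAR1 IgG libraries and 180 in all 4. Those 180 genes held 34.6% and 84.3% of the cDNAs in dyskerin IgG 1 and 2, against 92.6% and 89.2% in GAR1 IgG 1 and 2. They included 91 H/ACA snoRNAs of 243 annotated, 43 C/D snoRNAs of 450, 14 scaRNAs of 53, 18 protein-coding genes of 20033 and 6 lncRNAs of 18866. Protein-coding genes found in both libraries of a set numbered 225 in dyskerin IgG and 68 in GAR1 IgG, whereas H/ACA snoRNAs numbered 96 and 102. Telomerase RNA (TERC), RNase P RNA (RPPH1) and the signal recognition particle RNA RN7SL1 had no called site in the 4 IgG libraries. They were absent or scarce with antibody too, so this is not particular to the controls. TERC had 0 cDNAs in all 4 antibody libraries. RPPH1 had 16 and 0 cDNAs with dyskerin and 0 and 30 with GAR1, and RN7SL1 had 6 and 1 with dyskerin and 4 and 33 with GAR1. RMRP, the RNA of RNase MRP, had 0 cDNAs in both dyskerin IgG libraries, against 66 and 0 in GAR1 IgG 1 and 2.

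The RNAs with most signal were H/ACA snoRNAs, MALAT1, SNORD3A and the mitochondrial rRNA MT-RNR2. SNORA81 had 23486 and 83099 CPM in dyskerin IgG 1 and 2, against 93404 and 151201 CPM in GAR1 IgG 1 and 2. It took the largest share of any gene in 3 libraries and was second to MALAT1 in dyskerin IgG 1. SNORA73B, a U17 snoRNA needed for rRNA processing, had 8784 and 41305 CPM in dyskerin IgG, against 48406 and 67190 CPM in GAR1 IgG. SNORA62 and SNORA6 come from introns of RPSA, a ribosomal protein gene. SNORA62 had 2048 and 9654 CPM in dyskerin IgG, against 21598 and 28222 CPM in GAR1 IgG. SNORA6 had 3160 and 12954 CPM in dyskerin IgG, against 27464 and 28315 CPM in GAR1 IgG. In these 4 snoRNAs both GAR1 IgG libraries lay above both dyskerin IgG libraries, and dyskerin IgG 1 was the lowest. None passed the test of the difference described next.

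MALAT1 and SNORD3A ran the other way, with high levels in both dyskerin IgG libraries. MALAT1 had 91698 and 81510 CPM in dyskerin IgG 1 and 2, against 3810 and 13457 CPM in GAR1 IgG 1 and 2, a ratio of means of 10.0. The log2 fold change was 3.34 ± 1.58 (SE, n = 2 each) and did not pass (edgeR quasi-likelihood test, adjusted p = 0.487). SNORD3A had 16203 and 23708 CPM in dyskerin IgG, against 2411 and 4672 CPM in GAR1 IgG, with a log2 fold change of 2.50 (edgeR adjusted p = 0.57). Both calls depended on the fit. DESeq2 called MALAT1 and SNORD3A (adjusted p = 0.00155 each), as did edgeR with all 8 libraries in one fit (0.00784 for MALAT1 and 0.0256 for SNORD3A), with sites of at least 3 cDNAs (0.0192 and 0.00516) and without either dyskerin IgG library. With each site counted once, the log2 fold changes were 0.86 for MALAT1 and 0.04 for SNORD3A. Without GAR1 IgG 1 the log2 fold change of MALAT1 was 2.69 and without GAR1 IgG 2 it was 4.51. The sets of both RNAs did not overlap, and unlike the called protein-coding genes described below their 2 dyskerin IgG libraries were close to each other. RNVU1-28, a variant U1 snRNA of the spliceosome, had 3611 and 6355 CPM in dyskerin IgG, against 268 and 2430 CPM in GAR1 IgG. SCARNA5, a Cajal body RNA, had 1631 and 5010 CPM in dyskerin IgG, against 911 and 374 CPM in GAR1 IgG. SCARNA1, also a Cajal body RNA, lay the other way, with 143 and 367 CPM in dyskerin IgG, against 2025 and 1308 CPM in GAR1 IgG. MT-RNR2 had 13412 and 16253 CPM in dyskerin IgG, against 3085 and 13737 CPM in GAR1 IgG, so that GAR1 IgG 1 alone was low. NEAT1, the lncRNA of paraspeckles, had 792 and 855 CPM in dyskerin IgG, against 417 and 561 CPM in GAR1 IgG.

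**Figure D2:**
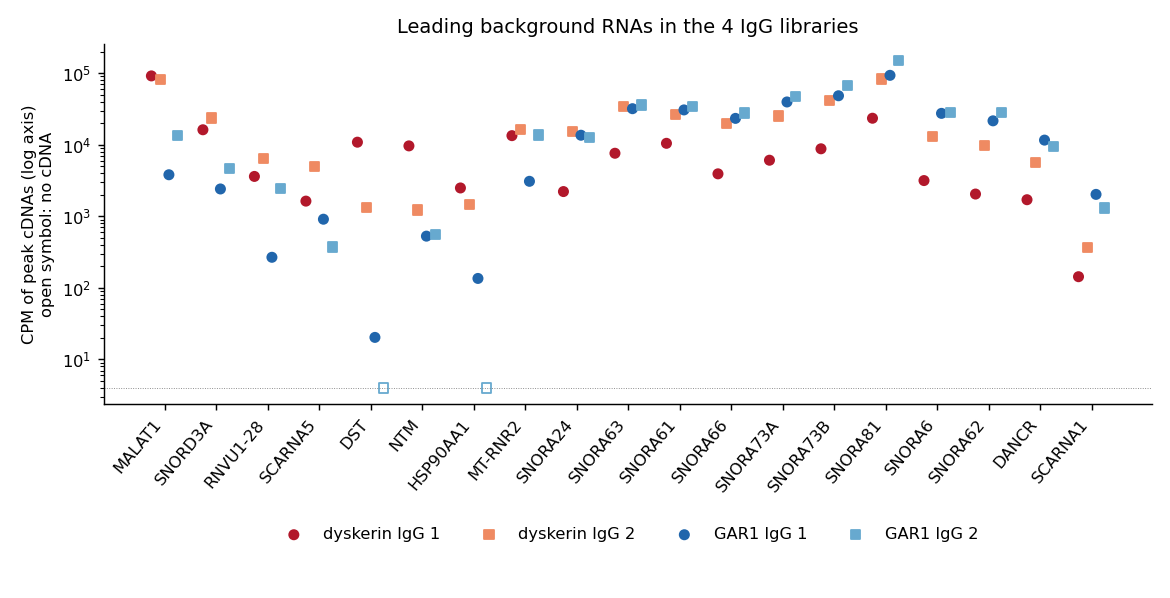
CPM of peak cDNAs (log axis) of leading and named RNAs in the 4 IgG libraries, one symbol a library, with open symbols at the dotted line for no cDNA. MALAT1 and SNORD3A stand higher in both dyskerin IgG libraries, and SNORA81, SNORA6 and SNORA62 stand higher in both GAR1 IgG libraries.

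Of 278 genes tested, those with at least 10 cDNAs in at least 2 of the 4 IgG libraries, 4 were called higher in dyskerin IgG and 0 lower (edgeR quasi-likelihood test on total-scaled cDNAs, adjusted p under 0.05), which is 1.44% and 0.0% of the genes tested. At an unadjusted p under 0.05 the counts were 20 higher and 8 lower, and DESeq2 called 13 higher and 0 lower. All 4 called genes were protein-coding genes whose signal lay almost wholly in dyskerin IgG 1. DST, which encodes the cytoskeletal linker dystonin, had 1592 and 11 cDNAs in dyskerin IgG 1 and 2, against 6 and 0 in GAR1 IgG 1 and 2 (log2 fold change 8.34, edgeR adjusted p = 0.00129), and it passed the filter through the dyskerin IgG libraries alone, so that it was bound to differ. TAS2R14, annotated as a bitter taste receptor gene, had 943 and 1 cDNAs in dyskerin IgG, against 10 and 0 in GAR1 IgG (6.82 on the log2 scale, edgeR adjusted p = 0.0117). ALCAM, a cell adhesion gene, had 926 and 0 cDNAs in dyskerin IgG, against 20 and 0 in GAR1 IgG (5.90, edgeR adjusted p = 0.0264). SDK1, also a cell adhesion gene, had 885 and 0 cDNAs in dyskerin IgG, against 27 and 0 in GAR1 IgG (5.47, edgeR adjusted p = 0.0387). The sets overlapped for ALCAM and SDK1, because both second libraries were at 0.

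These 4 calls were not stable. No gene was called with either GAR1 IgG library left out or with TMM scaling, and without dyskerin IgG 1 the calls were MALAT1, SNORD3A, SCARNA5 and ERCC1 in place of the 4. Without dyskerin IgG 2 the median log2 fold change over the 275 genes then tested was -1.44, against -0.79 over the 278 genes of the main fit. Each of these fits leaves 1 library in a set, which is assumed to vary like the other set. In the DST gene 34.3% of the 1151 sites of dyskerin IgG 1 lay in introns, while in TAS2R14 98.8% of 670 sites did, over a span of 230 kb. The same genes carried many sites in the dyskerin antibody libraries, with 6547 and 6935 sites in DST and 2995 and 2384 in TAS2R14, and DST had its leading site at the same nucleotide in dyskerin IgG 1 and both dyskerin antibody libraries.

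Both dyskerin IgG libraries lay above both GAR1 IgG libraries for 21 genes, 7.55% of those tested, and below both for 93 genes, 33.5%. The 21 were 12 protein-coding genes of 41 tested, 4 lncRNAs of 11, 2 snRNAs of 9 and 1 each of C/D snoRNA, scaRNA and other short RNA. The 93 included 52 H/ACA snoRNAs of 102 tested, 27 C/D snoRNAs of 90 and 5 scaRNAs of 19. Only for H/ACA snoRNAs was this above the 33.5% over all genes tested, and for C/D snoRNAs and scaRNAs it was below. Of the 102 H/ACA snoRNAs tested, 0 were called and the median log2 fold change was -1.09, against -0.79 over all genes tested. With TMM scaling the median over all genes moved to 0.21 and that of H/ACA snoRNAs to -0.32, while the medians of C/D snoRNAs (-0.90 with total scaling, 0.43 with TMM) and scaRNAs (-0.69 and 0.14) changed sign. The medians of protein-coding genes (2.33 over 41 genes, 3.49 with TMM) and lncRNAs (2.02 over 11, 2.95 with TMM) did not. The share of genes with a positive fold change was 25.2% with total scaling and 61.2% with TMM.

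Among mRNAs grouped by function, the 2 chaperone mRNAs tested of 33 annotated, HSP90AA1 and HSP90AB1, had a median log2 fold change of 4.01, and 0 were called (edgeR adjusted p = 0.196 and 0.342). HSP90AA1 had 2491 and 1466 CPM in dyskerin IgG, against 136 and 0 CPM in GAR1 IgG. The 4 tested mRNAs of speckle and splicing proteins of 48 annotated had a median of 2.92 with 0 called, among them RBM25, with 3085 and 733 CPM in dyskerin IgG, against 50.8 and 93.5 CPM in GAR1 IgG, and HNRNPA2B1, with 2116 and 978 CPM in dyskerin IgG, against 112 and 0 CPM in GAR1 IgG. In all 3 the sets did not overlap. DESeq2 called HSP90AA1, HSP90AB1, RBM25 and HNRNPA2B1 (adjusted p = 0.00261, 0.0277, 0.00155 and 0.00636), as did edgeR with all 8 libraries in one fit and without dyskerin IgG 2. For 2 translation factor mRNAs the median was 0.99, and for 2 ribosomal protein genes, RPL13 and RPL12, it was -1.24, with 0 called in either list. In RPL13 and RPL12, 100% of the cDNAs in all 4 IgG libraries lay within 50 nt upstream of a guide RNA. Their value thus describes the flanks of hosted snoRNAs and not ribosomal protein mRNA. No nucleolar protein, glycolysis or histone mRNA passed the filter. Nucleolin (NCL) was below it, with 3146 and 733 CPM in dyskerin IgG, against 10.2 and 561 CPM in GAR1 IgG. One snRNA, RNU4-2 of the U4 particle, had 0 cDNAs in both dyskerin IgG libraries, against 131 and 11 in GAR1 IgG 1 and 2, and was at least 23.9-fold higher in GAR1 IgG (against 3 cDNAs over the dyskerin IgG set, a bound that does not cover positions that missed the site call), with an edgeR adjusted p of 0.196. It passed the filter through the GAR1 IgG libraries alone.

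The sites in protein-coding genes lay mainly in introns and coding sequence in every control. Coding sequence held 34.0% and 37.6% of these sites in dyskerin IgG 1 and 2, against 18.7% and 36.6% in GAR1 IgG 1 and 2, and introns held 62.3% and 52.9%, against 64.4% and 50.7%. The 3′UTR share was 1.46% and 6.54% in dyskerin IgG, against 10.7% and 6.57% in GAR1 IgG. For coding sequence and 3′UTR the second libraries were close to each other and the first libraries were not, while for introns both pairs were about equally close. The coding share averaged 8.16 percentage points higher in dyskerin IgG, but it overlapped between the sets and the difference was -0.772 points when GAR1 IgG 1 was left out.

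In GAR1 IgG 1 a large part of the signal of protein-coding genes and lncRNAs sat just before guide RNAs. Of the cDNAs in protein-coding genes, 0.279% and 4.72% in dyskerin IgG 1 and 2 lay within 50 nt upstream of a guide RNA, against 33.2% and 5.45% in GAR1 IgG 1 and 2. For lncRNAs the values were 0.826% and 3.67% in dyskerin IgG, against 41.9% and 17.9% in GAR1 IgG. Single positions carried much of it, and those named here were chosen after their values were seen. In DANCR a site 13 nt before SNORA26, whose sequence is given above, had 144 and 20 cDNAs in dyskerin IgG, against 1516 and 43 in GAR1 IgG. In IPO7, an importin gene, an intronic site 9 nt before SNORA23 had 27 and 16 cDNAs in dyskerin IgG, against 813 and 22 in GAR1 IgG. In RPL13 a site 6 nt before the C/D snoRNA SNORD68 had 67 and 5 cDNAs in dyskerin IgG, against 531 and 12 in GAR1 IgG. These sites were present in all 4 controls and highest in GAR1 IgG 1. Away from such flanks, protein-coding transcripts held 55.6% and 14.1% of the cDNAs in dyskerin IgG, against 1.86% and 8.92% in GAR1 IgG.

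A measure that does not use the library total is the share of each snoRNA within the H/ACA cDNAs of its library. This is a scaling too, and the shares are tied to each other. SNORA81 alone held between 11.6% and 20.1% of the H/ACA cDNAs in the IgG libraries. Of the 102 H/ACA snoRNAs, 23 had a higher share in both dyskerin IgG libraries than in both GAR1 IgG libraries (22.5%) and 20 a higher share in both GAR1 IgG libraries (19.6%). With 2 libraries a set, part of such counts arises without any difference between the sets. SNORA65, from the ribosomal protein gene RPL12, made up 3.21% and 1.83% of the H/ACA cDNAs in dyskerin IgG 1 and 2, against 1.5% and 0.993% in GAR1 IgG 1 and 2. SNORA12 made up 1.31% and 0.937% in dyskerin IgG, against 0.429% and 0.273% in GAR1 IgG. SNORA62 went the other way, with 1.27% and 1.64% in dyskerin IgG, against 2.68% and 3.75% in GAR1 IgG, as did SNORA6, with 1.96% and 2.21% in dyskerin IgG, against 3.41% and 3.76% in GAR1 IgG. SNORA65 and SNORA12 were chosen after their values were seen.

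The antibody libraries are other libraries than those of this comparison, although their independence from the controls was not tested. Among them 32 of the 102 (31.4%) had a higher share in both dyskerin libraries and 37 (36.3%) in both GAR1 libraries. Of the 23 snoRNAs higher in dyskerin IgG, 19 were higher with the dyskerin antibody, 0 with the GAR1 antibody and 4 overlapped. Of the 20 higher in GAR1 IgG, 15 were higher with the GAR1 antibody, 0 with the dyskerin antibody and 5 overlapped. Among the 70 snoRNAs with at least 10 cDNAs in all 4 IgG libraries, 18 were higher in dyskerin IgG and 15 in GAR1 IgG. No p is attached to these counts.

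**Figure D3:**
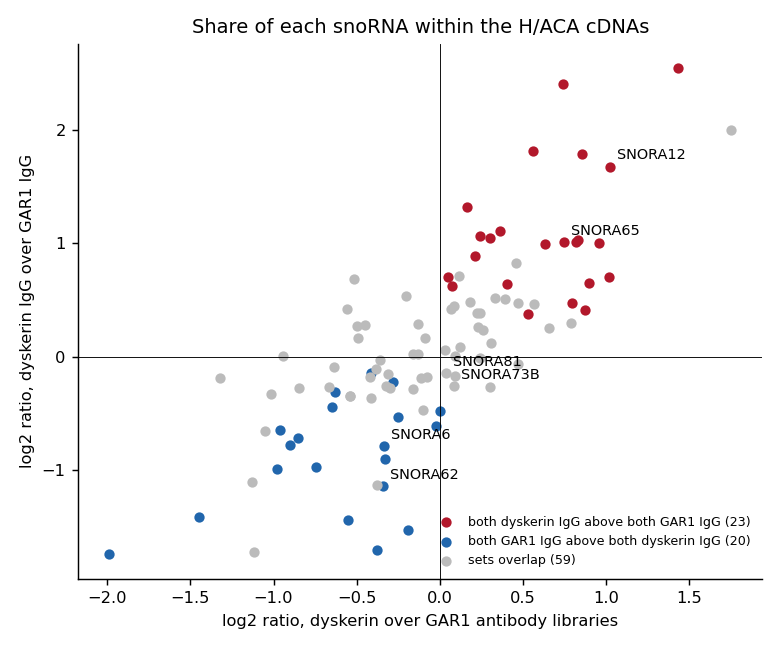
Log2 ratio of each H/ACA snoRNA's share, dyskerin IgG over GAR1 IgG (vertical), against the same ratio between the dyskerin and GAR1 antibody libraries (horizontal), one point a snoRNA, 102 in all. Of these, 43 have both ratios above 1, 41 have both below 1 and 18 lie on opposite sides.

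As a description over the 102 H/ACA snoRNAs, which share sequence families and library depth, the Pearson correlation of log2(CPM + 10) was 0.952 and 0.934 between dyskerin IgG 1 and the dyskerin antibody libraries and 0.852 with each GAR1 antibody library. GAR1 IgG 1 correlated at 0.979 and 0.974 with the GAR1 antibody libraries and at 0.902 and 0.899 with those of dyskerin. Dyskerin IgG 2 gave 0.834 and 0.860 with dyskerin and 0.768 and 0.785 with GAR1, and GAR1 IgG 2 gave 0.877 and 0.898 with GAR1 and 0.812 and 0.833 with dyskerin. Over these snoRNAs each of the 4 IgG libraries was thus closer to the antibody libraries of its own immunoprecipitation. Over all 278 genes tested this held for 3, whereas dyskerin IgG 2 correlated at 0.546 and 0.612 with the dyskerin antibody libraries and at 0.636 and 0.639 with those of GAR1. Over the 102 H/ACA snoRNAs the 2 dyskerin IgG libraries correlated at 0.818 and the 2 GAR1 IgG libraries at 0.894. Between the sets, dyskerin IgG 1 gave 0.884 and 0.788 with GAR1 IgG 1 and 2, and dyskerin IgG 2 gave 0.776 and 0.670. Over all 278 genes the values within the sets were 0.576 for dyskerin IgG and 0.838 for GAR1 IgG. There dyskerin IgG 1 gave 0.430 and 0.471 with GAR1 IgG 1 and 2. Dyskerin IgG 2 gave 0.696 and 0.693, above its value with dyskerin IgG 1.

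SNORA81 was a larger part of the H/ACA signal in IgG than with antibody. It made up 14.5%, 14.2%, 11.6% and 20.1% of the H/ACA cDNAs in dyskerin IgG 1 and 2 and GAR1 IgG 1 and 2, against 7.77%, 7.20%, 8.10% and 6.49% in the dyskerin and GAR1 antibody libraries. Among the 10 H/ACA snoRNAs with the highest mean share in IgG, SNORA61 and SNORA66 were likewise higher in all 4 IgG libraries than in all 4 antibody libraries. Since these 10 were chosen by their level in IgG, this is a description with no test. The IgG libraries also had lower totals. Among them the most cDNAs at a site rose with the total. It was 197 of 8183 in dyskerin IgG 2, 495 of 10701 in GAR1 IgG 2, 772 of 146514 in dyskerin IgG 1 and 2139 of 295255 in GAR1 IgG 1. With the GAR1 antibody it was 2126 of 585454 and 2666 of 1976518, and with the dyskerin antibody 1772 of 1693951 and 1941 of 1875459. From GAR1 IgG 1 to the antibody libraries this count thus changed far less than the total. Whether this bears on the shares was not tested.

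Positions common to every control held most of the cDNAs in 3 of the 4. At single-nucleotide resolution 945 positions were called in all 4 IgG libraries, 697 of them in H/ACA snoRNAs, and they held 18.3% and 57.6% of the cDNAs in dyskerin IgG 1 and 2, against 63.9% and 65.9% in GAR1 IgG 1 and 2. Positions called in both libraries of one set and in neither of the other numbered 190 for dyskerin IgG, 90 of them in MALAT1, and 361 for GAR1 IgG, 269 of them in H/ACA snoRNAs. In dyskerin IgG 1, 59.4% of sites were also called in a dyskerin antibody library but in no GAR1 antibody library, against 7.18% in dyskerin IgG 2 and 3.95% and 4.30% in GAR1 IgG 1 and 2. The dyskerin antibody libraries had 902977 and 925145 called sites, against 24810 and 53445 in the GAR1 antibody libraries, and so offered far more positions to match. How far this gap sets the shares was not tested. Sites called in no antibody library were 30.5% and 16.7% in dyskerin IgG, against 11.2% and 15.5% in GAR1 IgG.

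Along the guide RNAs the signal fell mostly in the 5′ part in every control. Averaged over 19 H/ACA snoRNAs and scaRNAs with at least 50 cDNAs in all 4 IgG libraries, 14.9% and 16.5% of the cDNAs lay past the midpoint of the RNA in dyskerin IgG 1 and 2, against 19.2% and 20.3% in GAR1 IgG 1 and 2. With antibody the values were 23.1% and 21.4% for dyskerin and 25.0% and 24.1% for GAR1, so over these 19 RNAs all 4 IgG libraries lay below all 4 antibody libraries. Whether the lower totals of the IgG libraries bear on this was not tested. With every RNA of at least 50 cDNAs in the library at hand the values were 15.6% and 16.6% in dyskerin IgG, against 16.8% and 23.8% in GAR1 IgG, and that of GAR1 IgG 2 was then above those of dyskerin antibody library 2 (22.5%) and GAR1 antibody library 2 (22.4%). The leading nucleotide was the same in all 4 IgG libraries for 11 of the 19 RNAs. In SNORA81 it was nucleotide 45 in each, the capital C that leads both sequences given above.

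**Figure D4:**
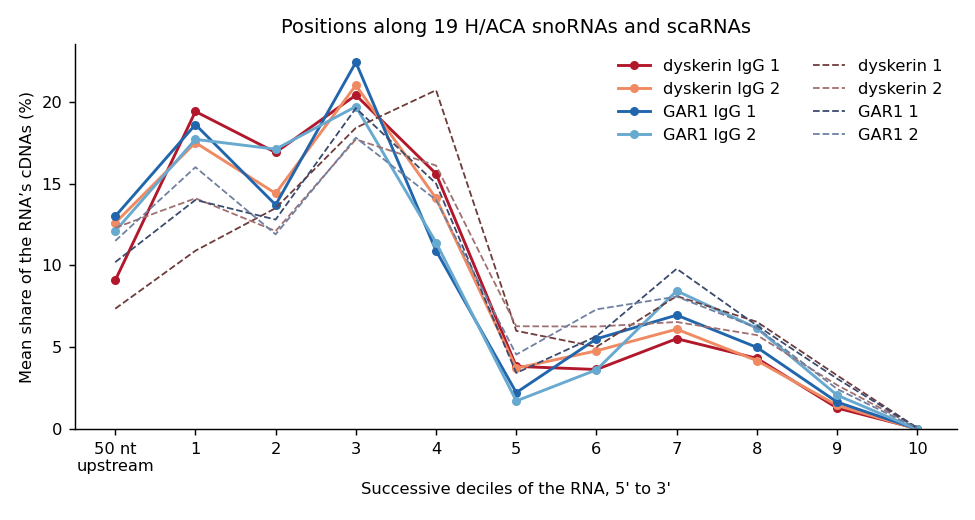
Mean share (%) of an RNA's cDNAs in the 50 nt upstream and in 10 equal successive parts of the RNA, over 19 H/ACA snoRNAs and scaRNAs, with solid lines for the 4 IgG libraries and dashed lines for the 4 antibody libraries. All 4 IgG lines peak in the third part, and 14.9% and 16.5% (dyskerin IgG) and 19.2% and 20.3% (GAR1 IgG) of the cDNAs lie past the midpoint.

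SNORA77B was the only one of the 19 whose leading nucleotide was shared by the 2 libraries of each set and differed between the sets. It was nucleotide 41 in dyskerin IgG, with 19.6% and 23.2% of the RNA's cDNAs, against nucleotide 28 in GAR1 IgG, with 30.6% and 37.5%, counted from the first nucleotide of the RNA. The window held 352 and 69 cDNAs in dyskerin IgG and 2888 and 80 in GAR1 IgG. The dyskerin antibody libraries also led at nucleotide 41 (25.2% and 20.8%), and the GAR1 antibody libraries at nucleotide 28 (25.9% and 11.4%). Both nucleotides are capitals in the dyskerin IgG sequence above, whereas of the pair only nucleotide 28 is one in GAR1 IgG.

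Along MALAT1 the 4 controls had nearly the same profile although their levels differed. The region from nucleotide 2001 to 2500 held 51.6% and 56.4% of its cDNAs in dyskerin IgG 1 and 2, against 51.4% and 59.0% in GAR1 IgG 1 and 2. The region from 1501 to 2000 held 24.8% and 21.0%, against 22% and 25.7%, and that from 2501 to 3000 held 21.6% and 21.9%, against 17.4% and 14.6%. In the sequence of MALAT1 given above, the leading T was the top site of the RNA in 3 of the 4 controls, and in dyskerin IgG 1 the top site lay upstream of that window, as it did in all 4 antibody libraries. MALAT1 made up 49.8% and 76.5% of the lncRNA cDNAs in dyskerin IgG, against 17.2% and 40.2% in GAR1 IgG. Without it, lncRNAs held 9.25% and 2.51% of the library in dyskerin IgG, against 1.83% and 2.00% in GAR1 IgG.

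**Figure D5:**
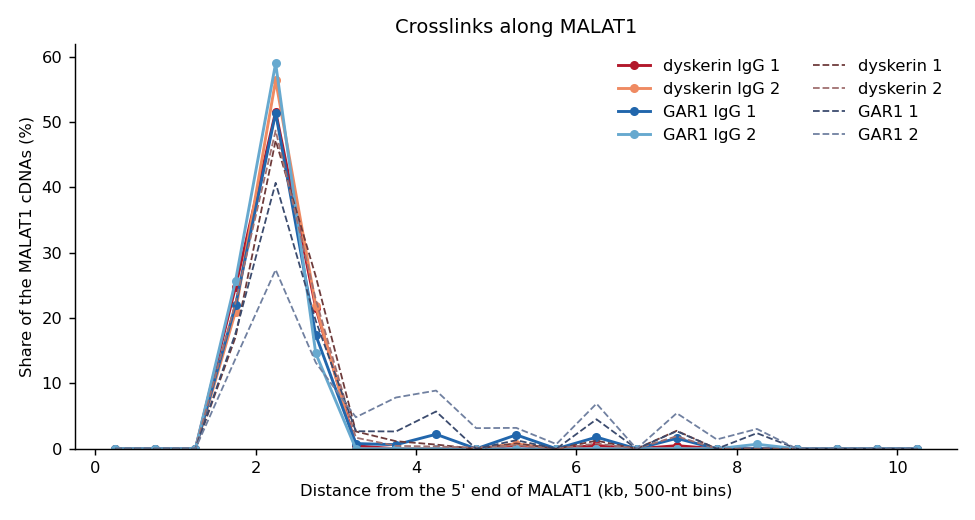
Share (%) of the MALAT1 cDNAs in 500-nt bins from its 5′ end, with solid lines for the 4 IgG libraries and dashed lines for the 4 antibody libraries. The bin of 2001 to 2500 nt holds 51.6% and 56.4% in dyskerin IgG, against 51.4% and 59.0% in GAR1 IgG.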

How the data were processed

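The authors trimmed reads with Cutadapt, checked them with FastQC 0.11.9, aligned them to GRCh38 with STAR 2.7.0e and called crosslink sites in each library separately with iCount on the iMaps server. The deposited files list these sites with a count of cDNAs, not normalized, and all 4 IgG and 4 antibody files were used. Reads with several alignments were kept, so values of near-identical RNA copies are uncertain. Here each site was assigned by strand to GENCODE 44 genes plus 93 snoRNAs and scaRNAs taken from RefSeq, short RNAs first, with a margin of 5 nt upstream, then exons, then introns. Counts were scaled to the total cDNAs of each library. The 2 sets were compared with edgeR 4.0.16 (quasi-likelihood, two-sided, Benjamini-Hochberg over 278 genes, no TMM), with DESeq2 1.42.0 as an alternative. The edgeR fit was also run on simulated counts of a fixed dispersion, which does not show how it performs at the spread of these libraries. Genes named were the leading RNAs over the 4 libraries, by class and by list, the calls, and a fixed list. The libraries, lists and tests were chosen with earlier results of these data known. Alternatives were TMM, filters, site minimums, annotation, a fit of all 8 libraries, the replicate number as a block and leaving out each library.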

Additional observations from a re-analysis of the deposited data

How the results depend on the processing

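The count of genes called, 4 in all, depended on most choices: it was 0 with TMM, 36 (25 higher and 11 lower) with all 8 libraries in one fit, 1 with no filter (MALAT1), 0 with at least 50 counts, 0 with each site counted once, 13 with DESeq2, and between 0 and 72 with 1 library left out. The labels do not say whether same-numbered libraries of the sets belong together, and 2 pairs cannot settle it (correlation of same-numbered deviations 0.2628). The main fit treats them as unpaired, and with the replicate number as a block 0 genes were called. The difference in coding sequence share ranged between -0.772 and 17.1 percentage points with 1 library left out, turning negative without GAR1 IgG 1. The difference in the cDNA share of the 10 leading genes, -11.3 points, was 0.0865 with sites of at least 3 cDNAs and 0.847 with each site counted once. Genes with a site in both libraries of a set, 430 for dyskerin IgG and 282 for GAR1 IgG, became 147 and 165 with sites of at least 3 cDNAs, and 114 and 119 with at least 10 cDNAs. The counts within H/ACA snoRNAs, 23 and 20, ranged between 28 and 52 (dyskerin IgG higher) and between 26 and 48 (GAR1 IgG higher) with 1 library left out, since fewer libraries overlap less often; this alternative was added after seeing the data. The causes of the other shifts were not tested.

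The difference in H/ACA share kept its direction, although the sets overlapped with each site counted once; it was between -61.7 and -19.2 points with 1 library left out, and that in protein-coding share was between 8.64 and 49.7. Log2 fold changes that turned sign were, with TMM and DESeq2, SNORD76 (0.56 and 0.55), SCARNA10 (0.14 and 0.16) and RNU2-2P (0.39 and 0.43). With sites of at least 3 cDNAs SNORD76 was 0.37, and with each site counted once MT-RNR2 was -1.50, RNVU1-28 -0.03, EEF1D -0.15 and NEAT1 -1.18. With 1 library left out, SNORA24 ranged between -2.56 and 0.24, ACVR2B between -2.90 and 0.94, SCARNA10 between -1.64 and 0.01, RNU2-2P between -1.74 and 0.76 and MIR21 between -2.12 and 4.47. The sign turned without dyskerin IgG 1 for all but MIR21, which turned without dyskerin IgG 2, and also without GAR1 IgG 2 for ACVR2B (0.94) and RNU2-2P (0.30). In the second libraries 1 cDNA is worth 122 CPM in dyskerin IgG 2 and 93.4 CPM in GAR1 IgG 2, which limits every gene with few cDNAs.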
